A study of Arabidopsis thaliana with 36 samples.

Results

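The B-box (BBX) family of Arabidopsis thaliana holds 32 genes, which were taken from the deposited table by their AGI identifiers; all 32 were found among its 32833 genes. BBX proteins are zinc-finger transcription regulators that carry 1 or 2 B-box domains in tandem near the amino terminus, and some also carry a CCT domain, named after CONSTANS, CO-like and TOC1, near the carboxyl terminus. They fall into 5 structure groups: group I (BBX1 to BBX6) and group II (BBX7 to BBX13) have a pair of B-boxes and a CCT domain, group III (BBX14 to BBX17) has a single B-box and a CCT domain, group IV (BBX18 to BBX25) has a pair of B-boxes and no CCT domain, and group V (BBX26 to BBX32) has a single B-box alone. Many act on seedling light responses with HY5, a bZIP factor that promotes development in light, and are turned over by the COP1 and SPA ubiquitin ligase; others, with CONSTANS (CO, BBX1) as the founding member, set flowering time. In shade, PHYTOCHROME INTERACTING FACTORS (PIFs), bHLH factors held back by active phytochrome, promote elongation.

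Whole 7-day-old seedlings were compared as RNA-seq libraries. The genotypes were hy5 pif457, which combines both sets of mutations, hy5, pif457 (PIF4, PIF5 and PIF7) and the wild type Col-0 (WT). Alleles are not stated in the labels. All seedlings had grown at 22 °C in continuous white light with a red to far-red ratio of about 1.58, and each genotype was harvested just before (0 h) and at 1 and 8 h of simulated shade, in which added far-red light brought that ratio to about 0.02. This gave 12 groups of 3 biological replicates, 36 libraries in all. The labels give no group kept in white light to 1 or 8 h, so a change during shade cannot be told apart from one with elapsed time. In whole seedlings, fewer cells of a type and less RNA per cell cannot be told apart either.

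Library totals ran from 30846115 to 58025421 counts. HY5 transcripts stood at 28.6% of WT in hy5 pif457 and 27.9% in hy5 at 0 h, PIF5 at 6.3% in hy5 pif457 and 5.2% in pif457, and PIF7 at 11.0% and 9.6% in those same genotypes. PIF4 was not called lower than WT in either at 0 h. Its mean at 1 h was 30.9 CPM in hy5 pif457 and 12.1 CPM in pif457, against 19.7 CPM in WT. At 8 h PIF4 gave 53.8, 45.1 and 53.7 CPM in hy5 pif457 and 37.5, 38.0 and 39.8 CPM in pif457. WT gave 65.2, 84.6 and 79.6 CPM at 8 h. Nuclear rRNA took 4.86% to 9.93% of counts in 12 libraries, which were all 9 of hy5 pif457 and the 3 of pif457 at 8 h, against 0.29% to 1.29% in the other 24. Where these 12 are compared with the other 24, a difference of genotype or time cannot be told apart from this one. All 8 shoot and all 15 root marker genes had counts in every group. Replicate 2 of hy5 at 8 h stood apart: 7 of the BBX genes lay at least 2-fold from the mean of its other two replicates. This held for 4 BBX genes in replicate 3 of pif457 at 8 h, for 3 in replicate 2 of WT at 0 h, for 3 in replicate 1 of pif457 at 1 h, and for at most 1 in any other library. HY5 in that hy5 library was 6.03 CPM, against 5.66 and 4.41 CPM in its companions.

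Of the 32 genes, 29 passed a filter on low counts, and edgeR's quasi-likelihood F-test was run on them. The other 3 were all but silent. BBX26 (AT1G60250) had 1 count over all libraries, BBX9 (AT4G15250) had 4 counts, never more than 1 in a library, and BBX10 (AT3G21880) had 19 counts over 11 libraries. A library with no count allows up to 0.0481 to 0.105 CPM, the worth of 3 counts (counting error only). CPM are the counts of a library scaled by its TMM-adjusted size to a common total. On the TAIR10.1 assembly, both BBX9 and BBX10 have a transcribed family member as their next gene, on the other strand and pointing towards them: BBX10 and BBX31 are 486 bases apart on chromosome 3, and BBX9 and BBX30 are 284 bases apart on chromosome 4.

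The levels spanned a wide range. Per kb of the longest annotated transcript, BBX5 (AT5G24930, COL4, a repressor of flowering) led WT at 0 h with 203 ± 12.1 CPM per kb, followed by BBX4 (AT2G24790, COL3, a promoter of light development) at 131 ± 21.9, BBX15 (AT1G25440, COL16) at 103 ± 20.8 and BBX14 (AT1G68520, COL6) at 83 ± 1.87 (SD, n = 3 each). The libraries of BBX5 (189 to 211 CPM per kb) lay above those of BBX4 (106 to 147 CPM per kb), while the libraries of BBX4 and BBX15 (79.7 to 119 CPM per kb) overlapped. BBX24 was next at 60.8 ± 6.31 CPM per kb. At the low end, BBX1 (AT5G15840, CO) stood at 1.91 ± 0.217, BBX29 at 1.86 ± 0.457 and BBX23 at 0.0504 ± 0.0437 CPM per kb.

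The span across groups differed as widely. From the lowest to the highest of the 12 group means, BBX5 spanned 1.23-fold and BBX4 1.3-fold, while BBX30 spanned 13.8-fold, BBX29 11.8-fold, BBX28 9.15-fold and BBX6 7.15-fold. In the fit of all libraries, BBX1, BBX4, BBX5, BBX11 and BBX15 passed the test in none of the 24 comparisons made. Without replicate 2 of WT at 0 h, BBX4 (edgeR adjusted p = 0.0261) and BBX15 (adjusted p = 0.0146) fell in WT at 8 h. Both then also passed in hy5 pif457 against WT at 0 h and for its 8 h response difference. BBX1 and BBX5 each passed with a library left out, as given below. BBX1 ranged between 3.44 ± 0.355 CPM in hy5 at 0 h and 6.25 ± 0.83 CPM in WT at 8 h. The other 24 tested genes passed in at least 1 comparison, BBX6 in 16, BBX29 in 14, and BBX24 and BBX28 in 12 each.

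**Figure D1:**
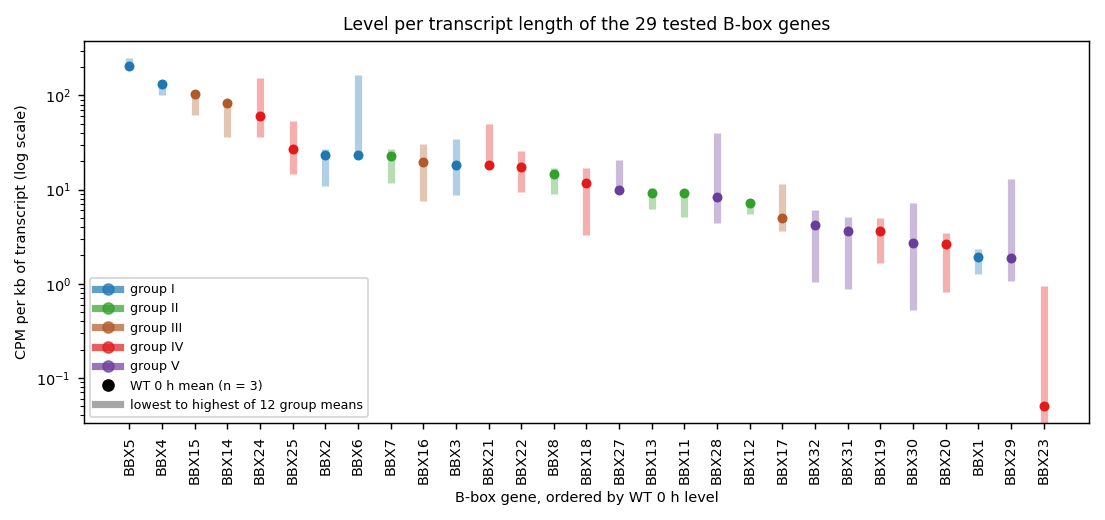
Level of the 29 tested BBX genes as CPM per kb of the longest transcript (log axis), ordered by their mean in WT at 0 h (points, n = 3). Bars run from the lowest to the highest of the 12 group means, and colours give the structure group; BBX5 spans 1.23-fold and BBX30 13.8-fold, and the bar of BBX23 leaves the axis because its lowest group mean is 0.

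Among the genes that rose in WT were BBX6 (COL5, able to promote flowering when overexpressed), BBX24 (STO) and BBX28, which hold back HY5 action, and BBX29. Their promoters, the 250 bases before the annotated start, are shown with that of BBX30, which was called as lower in WT at 1 h. HY5 binds sites with an ACGT core, among them the G-box CACGTG, which PIFs bind too, and PIFs also bind the PBE-box CACATG. Sequences are from the RefSeq TAIR10.1 assembly, 5′ to 3′ on the strand of the gene, with G-box, PBE-box and ACGT letters in capitals (both strands searched; the G-box holds ACGT).
BBX6, chr5:23355087-23355336, plus strand: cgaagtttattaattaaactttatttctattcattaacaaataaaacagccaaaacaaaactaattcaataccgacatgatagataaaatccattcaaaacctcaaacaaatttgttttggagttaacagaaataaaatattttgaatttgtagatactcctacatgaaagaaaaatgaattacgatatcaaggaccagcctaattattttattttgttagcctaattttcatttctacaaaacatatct
BBX24, chr1:1829984-1830233, minus strand: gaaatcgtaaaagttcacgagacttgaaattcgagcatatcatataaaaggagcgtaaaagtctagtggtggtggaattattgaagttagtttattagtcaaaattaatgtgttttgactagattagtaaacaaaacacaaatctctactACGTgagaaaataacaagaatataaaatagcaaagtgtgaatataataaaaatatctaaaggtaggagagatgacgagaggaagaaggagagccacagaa
BBX28, chr4:13675287-13675536, plus strand: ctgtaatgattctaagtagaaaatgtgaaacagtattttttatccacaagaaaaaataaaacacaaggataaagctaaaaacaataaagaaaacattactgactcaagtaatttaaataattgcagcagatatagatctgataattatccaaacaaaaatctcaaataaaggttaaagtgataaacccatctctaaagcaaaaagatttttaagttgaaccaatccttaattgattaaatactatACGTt
BBX29, chr5:22115540-22115789, minus strand: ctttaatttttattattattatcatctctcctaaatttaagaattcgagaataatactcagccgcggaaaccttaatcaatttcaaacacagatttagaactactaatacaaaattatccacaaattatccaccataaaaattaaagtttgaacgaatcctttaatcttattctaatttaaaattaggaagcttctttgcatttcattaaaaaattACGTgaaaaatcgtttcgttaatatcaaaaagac
BBX30, chr4:8708591-8708840, plus strand: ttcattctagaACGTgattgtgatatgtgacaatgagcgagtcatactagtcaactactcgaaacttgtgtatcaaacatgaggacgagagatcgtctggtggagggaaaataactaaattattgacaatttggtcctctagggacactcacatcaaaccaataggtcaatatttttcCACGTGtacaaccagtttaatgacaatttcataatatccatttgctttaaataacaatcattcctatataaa
BBX24, BBX28 and BBX29 each held 1 ACGT core, BBX6 held none of the motifs, and BBX30 held a G-box whose first base lies 72 bases before the start. The promoters of BBX18, BBX22 and BBX32, also called as lower in WT at 1 h, held none of the motifs. Over the family, 4 of 32 promoters held a G-box (BBX5, BBX9, BBX10 and BBX30), 5 of 32 a PBE-box (BBX4, BBX5, BBX8, BBX12 and BBX13) and 14 of 32 an ACGT core. Of 27443 promoters of protein-coding genes, 6.5% held a G-box, 11.1% a PBE-box and 44.1% an ACGT core. BBX5, with a G-box and a pair of PBE-boxes, was among the genes that passed in no comparison in the fit of all libraries.

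In WT, shade was followed by a rise of 8 BBX genes and a fall of 2 at 8 h, and by a rise of 3 and a fall of 4 at 1 h. Of all 21562 genes tested, 19.2% were called at 8 h (12% higher, 7.11% lower) and 5.20% at 1 h (3.56% higher, 1.64% lower), which is the background for 10 and 7 of 29 BBX genes. BBX6 (AT5G57660) gave 32.3, 42.6 and 33.3 CPM at 0 h, 102, 105 and 82.8 CPM at 1 h, and 257, 253 and 264 CPM at 8 h, in steps with no overlap. Its log2 fold change was 1.42 ± 0.21 at 1 h (SE; edgeR adjusted p = 2.95e-05) and 2.84 ± 0.22 at 8 h (adjusted p = 3.55e-10). BBX29 (AT5G54470), which restrains light development, gave 2.42, 1.54 and 2.48 CPM at 0 h, 6.35, 5.8 and 3.05 CPM at 1 h, and 10.3, 12.7 and 10.2 CPM at 8 h. It rose by a log2 of 1.23 ± 0.25 at 1 h (adjusted p = 0.00214) and 2.36 ± 0.25 at 8 h (adjusted p = 9.83e-08).

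The other genes called as higher in WT at 8 h were not called at 1 h by edgeR. BBX28 (AT4G27310) gave 14.4, 8.41 and 13.2 CPM at 0 h, 16.5, 16.9 and 10.5 CPM at 1 h, and 54.8, 60.7 and 56.7 CPM at 8 h. The first time points overlapped and the last lay clear of both (log2 2.26 ± 0.24 at 8 h; edgeR adjusted p = 1.49e-07). BBX24 (AT1G06040) gave 94.1, 76.7 and 83.2 CPM at 0 h, 67.6, 68.4 and 56.4 CPM at 1 h, and 199.7, 215 and 219.5 CPM at 8 h. It was 2.5-fold higher at 8 h (adjusted p = 3.46e-08). All 1 h libraries of BBX24 lay below those of 0 h. This fall was called by edgeR without replicate 2 of WT at 0 h (adjusted p = 0.0347, against 0.0694 with it). BBX21 (AT1G75540, STH2), which promotes light development with HY5, gave 23.9, 39.3 and 22.7 CPM at 0 h, 44.4, 47.6 and 48.6 CPM at 1 h, and 63.6, 58 and 68.8 CPM at 8 h. It rose by a log2 of 1.15 ± 0.23 at 8 h (adjusted p = 0.000679). All its 1 h libraries lay above those of 0 h. It was called at 1 h by DESeq2, and by edgeR only without replicate 2 of WT at 0 h (adjusted p = 0.00751, against 0.0625 with it). BBX27 (AT1G68190) gave 20.7, 14.4 and 19.9 CPM at 0 h, 43.5, 28.6 and 20.6 CPM at 1 h, and 26.6, 41.3 and 33.2 CPM at 8 h. Its log2 fold change at 8 h was 0.88 ± 0.25 (adjusted p = 0.0128). At 1 h it was called by DESeq2 and missed by edgeR (adjusted p = 0.0737), except without replicate 3 of WT at 1 h or with a score of the 15 root marker genes as a covariate. BBX25 (AT2G31380, STH), a close relative of BBX24, passed by a small margin at 8 h, with a log2 fold change of 0.63 ± 0.21 (adjusted p = 0.0373). The BBX25 call was lost whichever of the 6 libraries compared was left out, and that of BBX27 without replicate 2 of WT at 0 h or at 8 h (adjusted p = 0.0573 without the first). With the root marker score in the fit both were lost.

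BBX23 (AT4G10240), another promoter of light development, was near silent until 8 h. Its WT libraries held 20, 27 and 36 counts at 8 h, against 3, 3 and 0 counts at 0 h. Summed over the replicates and scaled to depth, the ratio was 12.9 (exact 95% interval 5.66 to 36, counting error only), and edgeR gave an adjusted p of 0.00122. In hy5 the libraries held 34, 48 and 30 counts at 8 h, against 0, 1 and 2 counts at 0 h, a ratio of 40.0 (13.3 to 197; edgeR adjusted p = 0.000108). Where PIF4, PIF5 and PIF7 were mutated no library at 8 h held more than 3: hy5 pif457 had 3, 3 and 0 counts and pif457 had 1, 1 and 2 counts. Against WT at 8 h, the ratio was 0.0842 (0.03 to 0.191) in hy5 pif457 and 0.0515 (0.0137 to 0.137) in pif457.

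**Figure D2:**
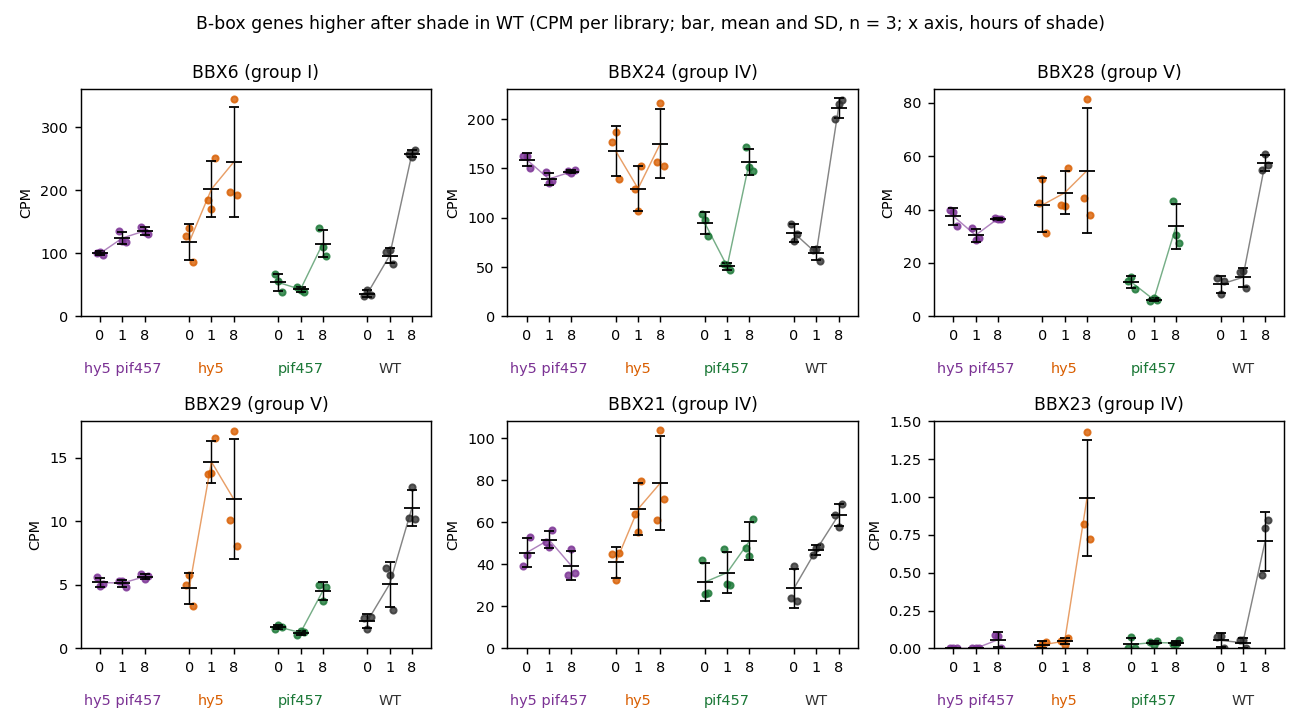
CPM of 6 BBX genes in each library (points; bars, mean and SD, n = 3) at 0, 1 and 8 h of shade in hy5 pif457, hy5, pif457 and WT. In WT at 8 h, BBX6 reached 253 to 264 CPM and BBX24 199.7 to 219.5 CPM, while in hy5 pif457 the 8 h means lie close to those at 0 h for BBX24, BBX28 and BBX29.

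A second set fell within 1 h in WT and was back near its starting level at 8 h: BBX18, BBX22, BBX30 and BBX32. BBX18 (AT2G21320, DBB1A), which promotes hypocotyl growth, gave 14.9, 8.19 and 15.2 CPM at 0 h, 5.76, 4.6 and 5.48 CPM at 1 h, and 13.1, 14.4 and 13.3 CPM at 8 h. It fell by 1.27 ± 0.26 on the log2 scale at 1 h (edgeR adjusted p = 0.00235) and was 1.36 ± 0.26 higher at 8 h than at 1 h (adjusted p = 0.000773). BBX22 (AT1G78600, LZF1), a promoter of light development and anthocyanin formation, gave 27.2, 31.7 and 27.6 CPM at 0 h, 13.9, 18.4 and 15.2 CPM at 1 h, and 29.2, 35 and 35.4 CPM at 8 h. The 1 h libraries of both genes lay below all those of the other times.

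BBX30 (AT4G15248), a microprotein that binds CO and represses flowering, gave 2.14, 1.1 and 1.98 CPM at 0 h, 0.529, 0.735 and 1.02 CPM at 1 h, and 1.52, 1.53 and 1.76 CPM at 8 h. The log2 change was -1.18 ± 0.32 at 1 h (edgeR adjusted p = 0.0275). BBX32 (AT3G21150), which binds BBX21 and opposes light development, gave 6.49, 2.89 and 6.85 CPM at 0 h, 2.64, 1.66 and 3.21 CPM at 1 h, and 5.83, 5.16 and 5.8 CPM at 8 h. The change was -1.11 ± 0.27 at 1 h (adjusted p = 0.0142), although 1 library of 0 h lay within the range of 1 h. BBX31 (AT3G21890), the other microprotein that binds CO, gave 2.0, 2.26 and 1.73 CPM at 1 h, against 5.09, 2.28 and 4.72 CPM at 0 h. It missed the test (adjusted p = 0.0782) unless replicate 2 of WT at 0 h was left out (adjusted p = 0.0159). Without that library 10 BBX genes passed at 1 h instead of 7. Without replicate 1 or replicate 3 of WT at 0 h, or replicate 2 of WT at 1 h, it was 4. These counts have no share of all genes beside them. Of the 6 fits that each leave out one library, 2 kept the call of BBX30 and 3 that of BBX32.

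BBX17 (AT1G49130, COL8), whose overexpression delays flowering, did the reverse of this set. It gave 8.61, 9.29 and 10.7 CPM at 0 h, 22.4, 21.3 and 23 CPM at 1 h, and 11.3, 15.5 and 11.7 CPM at 8 h, and was 2.33-fold higher at 1 h (edgeR adjusted p = 0.0285). That call was kept in 1 of 6 fits with a library left out, and was lost without the 12 rRNA-rich libraries. From 1 h to 8 h, 11 BBX genes rose and 1 fell in WT, against a background of 8.16% of genes called (4.46% higher, 3.70% lower). BBX16 (AT1G73870, COL7), which acts on branching and on growth in shade, was among them, with 53.1, 57 and 44 CPM at 8 h, against 25, 19 and 18.4 CPM at 1 h (log2 1.3 ± 0.4; adjusted p = 0.0399). This call was kept in 1 of 6 fits with a library left out. It was lost with the replicate block, with the root marker score and without the rRNA-rich libraries. The genes that fell at 8 h against 0 h were BBX14, with 106, 138 and 128 CPM, against 215, 214 and 223 CPM (log2 -0.81 ± 0.15; adjusted p = 0.000365), and BBX8 (AT5G48250, COL10), a repressor of flowering, with 14.4, 20.7 and 19.1 CPM, against 24, 30.5 and 24.6 CPM (log2 -0.55 ± 0.15; adjusted p = 0.011). BBX8 no longer passed without replicate 2 of WT at 0 h (adjusted p = 0.0591) or replicate 1 of WT at 8 h.

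**Figure D3:**
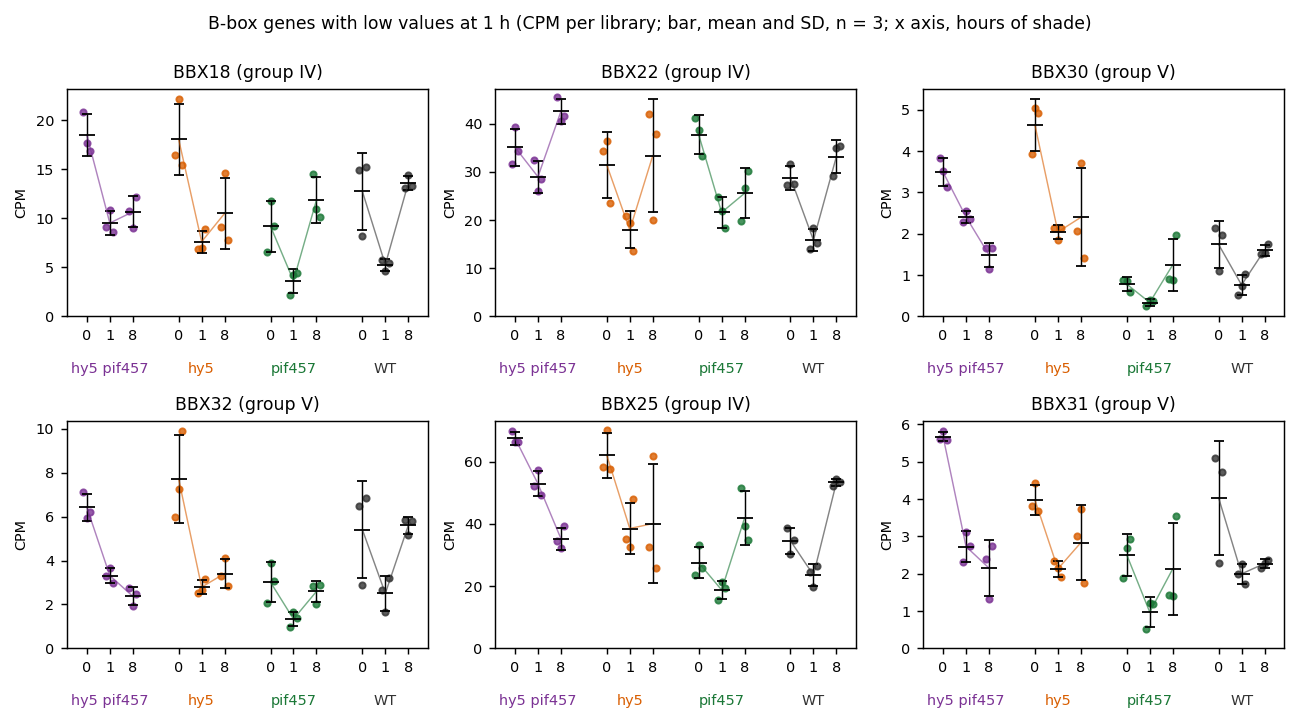
CPM of 6 BBX genes in each library (points; bars, mean and SD, n = 3) at 0, 1 and 8 h of shade in hy5 pif457, hy5, pif457 and WT. In WT the 1 h libraries of BBX18 (4.6 to 5.76 CPM) lie below those of 0 and 8 h, and in hy5 pif457 the 8 h values of BBX30, BBX32, BBX25 and BBX31 are the lowest of that genotype's means.

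Before shade, the loss of HY5 went with higher levels of 6 BBX genes and lower levels of 4, against a background of 9.49% of genes called (6.35% higher, 3.14% lower). BBX28 gave 42.5, 51.4 and 31.2 CPM in hy5, against 14.4, 8.41 and 13.2 CPM in WT (log2 1.79 ± 0.24; edgeR adjusted p = 2.27e-05). BBX6 gave 127, 140.1 and 86 CPM in hy5, against 32.3, 42.6 and 33.3 CPM in WT (log2 1.71 ± 0.21; adjusted p = 5.06e-06). BBX24 gave 177, 187 and 139 CPM in hy5, against 94.1, 76.7 and 83.2 CPM in WT (log2 0.98 ± 0.13; adjusted p = 1.7e-05). BBX30 gave 3.92, 5.05 and 4.92 CPM in hy5, against 2.14, 1.1 and 1.98 CPM in WT, and was 2.66-fold higher (adjusted p = 0.00438). BBX29 was 2.2-fold (adjusted p = 0.00455) and BBX25 1.79-fold higher (adjusted p = 0.0125). All hy5 libraries of these 6 genes lay above all those of WT.

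The lower genes in hy5 at 0 h were 3 of the 5 tested genes of group II and 1 of group IV. BBX7 (AT3G07650, COL9), which delays flowering by lowering CO expression, gave 25.4, 23.8 and 24.5 CPM in hy5, against 40.7, 54.4 and 46.2 CPM in WT (log2 -0.94 ± 0.2; edgeR adjusted p = 0.00399). BBX8 gave 17.3, 16 and 15.4 CPM in hy5, against 24, 30.5 and 24.6 CPM in WT (log2 -0.7 ± 0.15; adjusted p = 0.00404), and BBX13 (AT1G28050), a repressor of flowering, 13.6, 13 and 10.3 CPM in hy5, against 16.5, 17.8 and 19.5 CPM in WT (log2 -0.54 ± 0.15; adjusted p = 0.0211). BBX20 (AT4G39070, BZS1), a promoter of light development that binds HY5, fell furthest, with 0.974, 0.882 and 1.65 CPM in hy5, against 3.74, 4.12 and 3.48 CPM in WT (log2 -1.69 ± 0.32; adjusted p = 0.00131). No hy5 library of these genes reached the lowest WT library.

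The hy5 pif457 seedlings at 0 h were compared with the same WT libraries, so the results are not independent of those for hy5. The 6 genes that passed as higher were BBX6 (100.3, 103 and 96.8 CPM), BBX24 (163, 163 and 151 CPM), BBX25 (70.0, 66.4 and 66.3 CPM), BBX28 (39.7, 39 and 33.9 CPM), BBX29 (5.6, 4.94 and 5.04 CPM) and BBX30 (3.82, 3.52 and 3.13 CPM), and 3 were lower, BBX7, BBX8 and BBX14, against a background of 8.94% called (5.87% higher, 3.07% lower). Log2 fold changes of the higher genes ran between 0.91 ± 0.13 for BBX24 (edgeR adjusted p = 7.16e-05) and 1.64 ± 0.24 for BBX28 (adjusted p = 9.81e-05). BBX20 had 2.31, 2.94 and 4.02 CPM in hy5 pif457, a range that overlapped WT, and was not called. The calls of BBX30, BBX7 and BBX14 were kept in 0, 1 and 2 of 6 fits with a library left out. Summed root marker CPM ran from 2316 to 3135 in hy5 pif457, 1500.1 to 2880.3 in hy5 and 935 to 2404 in WT at 0 h, with none of the 15 markers at 0; with the root marker score in the fit, 7 BBX genes passed in hy5 pif457 and 12 in hy5, BBX6, BBX24, BBX25, BBX28 and BBX29 among the higher ones in each.

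In pif457 at 0 h no BBX gene was called against WT by edgeR, with 6 at an unadjusted p under 0.05 and 0 called by DESeq2, at a background of 0.0835% called. Without replicate 2 of WT at 0 h, BBX30 (log2 -1.40; adjusted p = 0.0428) and BBX32 (log2 -1.15; adjusted p = 0.0305) passed as lower. These BBX30 libraries gave 0.891, 0.862 and 0.587 CPM in pif457, all below the WT range.

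After 1 h of shade, 3 BBX genes in pif457 were lower than in WT, at a background of 2.57% (2.24% lower). BBX29 gave 1.08, 1.39 and 1.27 CPM in pif457, against 6.35, 5.8 and 3.05 CPM in WT (log2 -2.02 ± 0.25; edgeR adjusted p = 2.6e-06). BBX6 gave 47.2, 42.2 and 39.3 CPM in pif457, against 102, 105 and 82.8 CPM in WT (log2 -1.17 ± 0.21; adjusted p = 0.000457). BBX28 gave 5.63, 6.91 and 6.28 CPM in pif457, against 16.5, 16.9 and 10.5 CPM in WT (log2 -1.22 ± 0.24; adjusted p = 0.00234). The groups did not overlap for any of the 3.

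The change over the first hour itself differed between pif457 and WT for BBX6 (difference of log2 fold changes -1.75 ± 0.29; edgeR adjusted p = 0.000531) and BBX29 (-1.68 ± 0.36; adjusted p = 0.0107), at a background of 0.872% called (0.844% lower). Within pif457, 1 h of shade brought no called rise; BBX18, with 2.21, 4.24 and 4.47 CPM at 1 h, against 6.56, 11.8 and 9.25 CPM at 0 h (adjusted p = 0.0207), and BBX24, with 53.4, 51.8 and 47.1 CPM at 1 h, against 104, 97.9 and 81.8 CPM at 0 h (adjusted p = 0.000973), fell, at a background of 0.227% called (0.199% lower). When any library but replicate 1 of pif457 at 0 h was left out, only 1 BBX gene was called.

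In hy5 at 1 h, 2 BBX genes rose and 6 fell relative to 0 h, at a background of 6.77% (3.62% higher, 3.15% lower). BBX29 gave 13.7, 13.8 and 16.6 CPM at 1 h, against 5.01, 5.8 and 3.38 CPM at 0 h (log2 1.64 ± 0.24; edgeR adjusted p = 2.31e-05). BBX14 gave 93.8, 96.3 and 95.6 CPM at 1 h, against 166, 203 and 145 CPM at 0 h (log2 -0.85 ± 0.15; adjusted p = 0.000394). BBX32 fell furthest, to 2.54, 2.68 and 3.15 CPM at 1 h, against 5.98, 7.24 and 9.9 CPM at 0 h (log2 -1.47 ± 0.27; adjusted p = 0.000633). BBX18, BBX22, BBX25 and BBX30 were the other genes that fell, and BBX6 the other that rose; with the replicate number as a block, BBX6 was not called in a fit of these 2 groups, and BBX25 was not called in the fit of all libraries. The BBX25 call (adjusted p = 0.0461) was kept in 2 of 6 fits with a library left out.

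No BBX gene passed for a difference between the 1 h responses of hy5 and WT by edgeR (2 at an unadjusted p under 0.05, 0 by DESeq2), and neither did any gene of the table, at a background of 0.00%. Levels at 1 h still differed. In hy5 against WT, 5 BBX genes were higher and 2 lower, at a background of 4.27% (2.27% higher, 2.00% lower). BBX29 gave 13.7, 13.8 and 16.6 CPM in hy5, against 6.35, 5.8 and 3.05 CPM in WT (log2 1.54 ± 0.24; edgeR adjusted p = 0.000217), and BBX14 gave 93.8, 96.3 and 95.6 CPM in hy5, against 185, 164 and 232 CPM in WT (log2 -1.02 ± 0.15; adjusted p = 0.000116). A fit of these 2 groups alone with the replicate number as a block called 4 BBX genes, BBX25 and BBX28 as higher and BBX7 and BBX14 as lower. It called 370 genes in all (921 in the fit of all libraries).

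In hy5 pif457, no BBX gene was called between 1 h and 0 h by edgeR (6 at an unadjusted p under 0.05, 1 called by DESeq2), at a background of 0.181%. BBX29 gave 5.31, 5.3 and 4.82 CPM at 1 h, against 5.6, 4.94 and 5.04 CPM at 0 h. BBX18 gave 9.09, 10.9 and 8.6 CPM, against 20.9, 17.7 and 16.9 CPM. BBX31 gave 2.31, 3.12 and 2.75 CPM, against 5.6, 5.82 and 5.59 CPM, and BBX32 also lay lower without overlap. Others, BBX6, BBX17 and BBX27 among them, lay above all their 0 h libraries. Lack of overlap was not counted over all genes, so it has no background here. None of these differences was called by edgeR in the fit of all libraries. A fit of only these groups called 3 BBX genes as lower and 0 as higher, among 270 genes called. For no BBX gene was the 1 h response called different from that of WT by edgeR (4 at an unadjusted p under 0.05, 1 called by DESeq2), at a background of 0.969%. Against WT at 1 h, 6 BBX genes were higher and none lower, at a background of 7.57% (3.69% higher). BBX30 gave 2.29, 2.56 and 2.36 CPM in hy5 pif457, against 0.529, 0.735 and 1.02 CPM in WT (log2 1.65 ± 0.32; adjusted p = 0.00103). BBX25 gave 52.2, 57.2 and 49.4 CPM, against 24.4, 19.7 and 26.6 CPM (adjusted p = 0.000532). BBX24 gave 146, 135 and 137 CPM, against 67.6, 68.4 and 56.4 CPM (adjusted p = 9.18e-07). BBX18, BBX22 and BBX28 were the others. The call of BBX18 was kept in none of the 6 fits with a library left out. With the replicate number as a block in a fit of the groups compared, 10 BBX genes were called. That fit called 2039 genes in all (1633 in the fit of all libraries).

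In pif457 at 8 h, 5 BBX genes rose and 2 fell relative to 0 h, at a background of 9.94% (5.36% higher, 4.58% lower). BBX6 gave 140, 110.5 and 96.6 CPM at 8 h, against 67.2, 55.5 and 39.1 CPM at 0 h (log2 1.1 ± 0.21; edgeR adjusted p = 0.00145), and BBX28, BBX29, BBX24 and BBX21 also rose. BBX8 (15.6, 18.3 and 16.7 CPM at 8 h, against 33.6, 29.8 and 29.4 CPM at 0 h; adjusted p = 0.000669) and BBX7 (33.6, 35.8 and 25.5 CPM, against 61.4, 50.2 and 48.6 CPM; adjusted p = 0.0187) fell. BBX7 did not pass without replicate 3 of pif457 at 8 h (adjusted p = 0.144) or replicate 2 at 0 h, and BBX21 was kept in 1 of 6 fits with a library left out and in 1 of 8 other alternatives.

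Against WT at 8 h, 6 BBX genes were lower in pif457 and none higher, at a background of 11.3% (4.67% lower). BBX6 gave 140, 110.5 and 96.6 CPM in pif457, against 257, 253 and 264 CPM in WT (log2 -1.16 ± 0.21; edgeR adjusted p = 0.000433). BBX29 gave 5.01, 3.72 and 4.87 CPM in pif457, against 10.3, 12.7 and 10.2 CPM in WT (log2 -1.28 ± 0.24; adjusted p = 0.000706). BBX32 gave 2.84, 2.04 and 2.9 CPM in pif457, against 5.83, 5.16 and 5.8 CPM in WT (log2 -1.11 ± 0.27; adjusted p = 0.00985). BBX23, BBX28 and BBX24 were the others, the last pair each kept in 2 of 6 fits with a library left out and lost with the root marker score. BBX6 was the one gene of the family whose 8 h response differed from WT by test (difference -1.74 ± 0.29; adjusted p = 0.000961), at a background of 2.92% (1.62% lower).

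In hy5 at 8 h, 8 BBX genes rose and 6 fell relative to 0 h, at a background of 9.27% (4.52% higher, 4.75% lower). BBX6 gave 198, 345 and 192 CPM at 8 h, against 127, 140.1 and 86 CPM at 0 h (log2 1.06 ± 0.2; edgeR adjusted p = 0.000918). The other rises were BBX7, BBX8, BBX13, BBX20, BBX21, BBX23 and BBX29, and BBX20 gave 2.32, 3.45 and 2.14 CPM at 8 h, against 0.974, 0.882 and 1.65 CPM at 0 h (log2 1.16 ± 0.32; adjusted p = 0.0185). The falls were BBX3 (AT3G02380, COL2), BBX14, BBX18, BBX19 (AT4G38960), which represses flowering through CO, BBX30 and BBX32. BBX3 gave 15.7, 53.4 and 12.6 CPM at 8 h, against 74.7, 93.2 and 65.9 CPM at 0 h (log2 -1.52 ± 0.39; adjusted p = 0.0111), and BBX14 gave 89.9, 112 and 81.6 CPM, against 166, 203 and 145 CPM (adjusted p = 0.000319).

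Replicate 2 of hy5 at 8 h differed from its companions in many of these genes. BBX7 gave 45.8, 18.8 and 49.6 CPM at 8 h in hy5, BBX8 gave 29.7, 17.9 and 32.8 CPM, and BBX2 (AT5G15850, COL1) gave 18, 50.5 and 15.3 CPM, with replicate 2 at the far end each time. Against WT at 8 h, BBX8 alone passed (log2 0.57 ± 0.15; edgeR adjusted p = 0.0362), with 14.4, 20.7 and 19.1 CPM in WT, at a background of 2.61% (1.36% higher). Without that library 7 BBX genes passed: BBX7 and BBX8 were higher, and BBX2 (log2 -1.01; adjusted p = 0.0286), BBX3 (log2 -1.44; adjusted p = 0.0227), BBX5 (log2 -0.48; adjusted p = 0.0394), BBX19 (log2 -0.67; adjusted p = 0.0437) and BBX25 (log2 -0.91; adjusted p = 0.00644) lower. Without any one of the other 5 libraries of these groups none passed. No share of all genes called is given for these fits, so the 7 has no background. Relative to 0 h, BBX20 (adjusted p = 0.0911) and BBX21 (adjusted p = 0.0667) no longer passed without it, and BBX2 and BBX25 passed as lower. Among the calls at 8 h against 0 h in hy5, those of BBX7 and BBX18 were kept in 1 of 6 fits with a library left out, those of BBX13 and BBX30 in 2, and those of BBX3, BBX19 and BBX20 in 3.

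The 8 h response of hy5 differed from that of WT for 7 BBX genes, 3 with a higher and 4 with a lower log2 change, at a background of 1.53% (0.441% higher, 1.09% lower). Those with the lower change were BBX6 (-1.78 ± 0.29; edgeR adjusted p = 0.00184), BBX28 (-1.87 ± 0.33; adjusted p = 0.00431), BBX24 (-1.25 ± 0.18; adjusted p = 0.000559) and BBX25 (-1.26 ± 0.3; adjusted p = 0.0304). BBX28 gave 44.5, 81.3 and 37.9 CPM in hy5 and 54.8, 60.7 and 56.7 CPM in WT at 8 h, overlapping ranges, while at 0 h the hy5 libraries lay above those of WT. BBX8 (1.27 ± 0.21; adjusted p = 0.00212), BBX7 (1.17 ± 0.28; adjusted p = 0.0333) and BBX20 (1.84 ± 0.44; adjusted p = 0.0322) had the higher change. With a library left out, the call of BBX7 was kept in 3 of 12 fits, and those of BBX20 and BBX25 in 5. Without replicate 2 of hy5 at 8 h the count was 13, with BBX2, BBX3, BBX5, BBX13, BBX19 and BBX29 added. No share of all genes is given for that fit. With the root marker score in the fit the count was 4, BBX6, BBX8, BBX24 and BBX28, among 144 genes called (329 without the score).

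In hy5 pif457 at 8 h, relative to its 0 h, 4 BBX genes rose and 8 fell, at a background of 10.9% (4.73% higher, 6.20% lower). The rises were in group II: BBX7 gave 47.9, 53.1 and 52.8 CPM at 8 h, against 28.1, 30.2 and 30.0 CPM at 0 h (log2 0.8 ± 0.2; edgeR adjusted p = 0.0136). BBX8 gave 28.6, 28.7 and 28 CPM, against 16.4, 17.3 and 16 CPM (adjusted p = 0.00215). BBX12 (AT2G33500) gave 14.3, 12.5 and 12.8 CPM, against 10.7, 9.1 and 8.26 CPM (adjusted p = 0.028). BBX13 gave 19, 21.4 and 19.6 CPM, against 14.2, 15.1 and 12.9 CPM (adjusted p = 0.0302). No library of 8 h overlapped with 0 h in these 4 genes. BBX11 (AT2G47890), the other tested gene of the group, was not called.

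The falls in hy5 pif457 at 8 h were in groups I, IV and V. BBX3 gave 20.7, 17.1 and 21 CPM at 8 h, against 76.4, 71.5 and 64.1 CPM at 0 h (log2 -1.85 ± 0.39; edgeR adjusted p = 0.00414), and BBX2 gave 17.1, 16.5 and 21.1 CPM, against 44.9, 40.6 and 48.8 CPM (log2 -1.3 ± 0.3; adjusted p = 0.00863). BBX32 gave 2.73, 1.93 and 2.46 CPM, against 7.11, 5.92 and 6.23 CPM (log2 -1.44 ± 0.28; adjusted p = 0.00204). BBX31 gave 2.39, 1.32 and 2.74 CPM, against 5.6, 5.82 and 5.59 CPM (log2 -1.4 ± 0.34; adjusted p = 0.0111). BBX18, BBX19, BBX25 and BBX30 were the others of the 8. The calls of BBX18 and BBX19 were kept in none of the 6 fits with a library left out, and that of BBX12 in 2. The summed root marker CPM of these libraries ran from 1259 to 1389 at 8 h, against 2316 to 3135 at 0 h; with the root marker score in the fit, 8 BBX genes passed, BBX8 as higher and all but BBX30 of the 8 as lower.

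**Figure D4:**
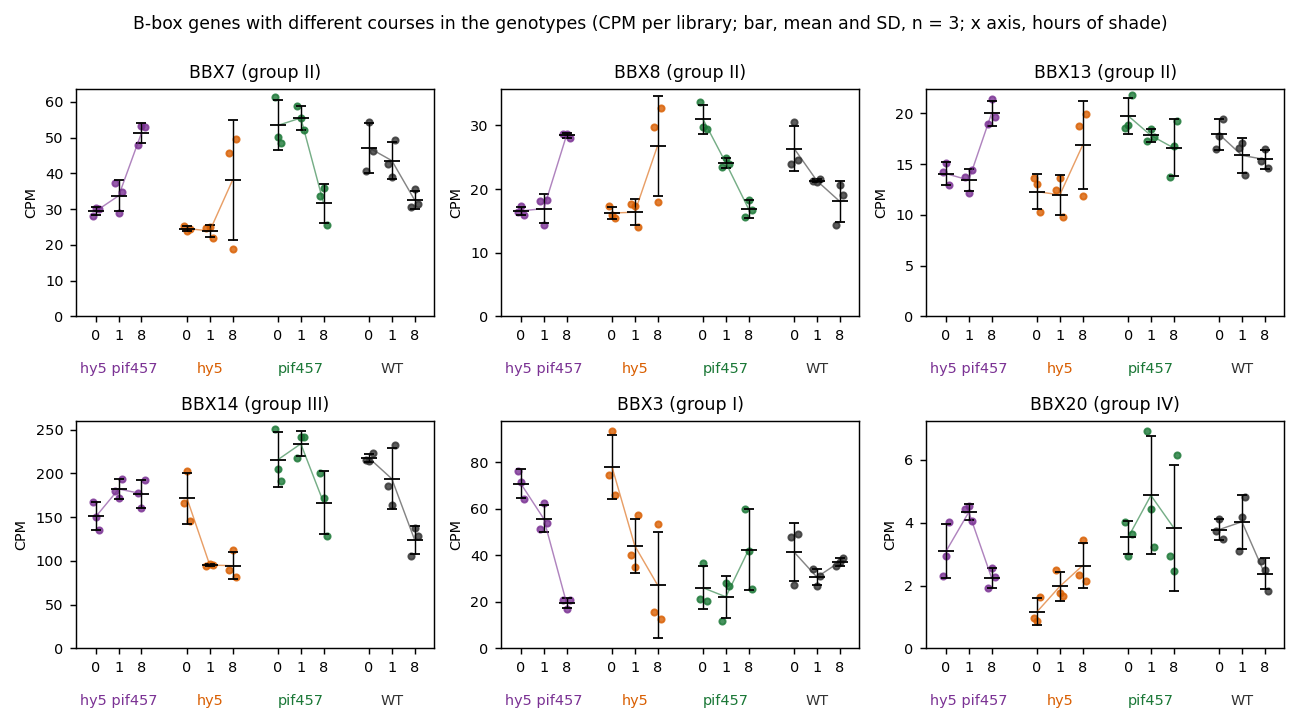
CPM of 6 BBX genes in each library (points; bars, mean and SD, n = 3) at 0, 1 and 8 h of shade in hy5 pif457, hy5, pif457 and WT. BBX7 reached 47.9 to 53.1 CPM in hy5 pif457 at 8 h, against 30.6 to 35.5 CPM in WT at 8 h, and replicate 2 of hy5 at 8 h (18.8 CPM) lies far below its companions.

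Against WT at 8 h, 3 BBX genes were higher and 8 lower in hy5 pif457, at a background of 18.7% (8.10% higher, 10.6% lower). BBX7 gave 47.9, 53.1 and 52.8 CPM in hy5 pif457, against 30.6, 35.5 and 31.5 CPM in WT (log2 0.66 ± 0.2; edgeR adjusted p = 0.0229). BBX8 was 1.57-fold (adjusted p = 0.00341) and BBX14 1.43-fold higher (178, 160.3 and 192 CPM in hy5 pif457, against 106, 138 and 128 CPM in WT; adjusted p = 0.0189). The lower genes were 7 of the 8 that rose in WT, BBX6 (142, 134 and 131 CPM, against 257, 253 and 264 CPM; log2 -0.93 ± 0.2; adjusted p = 0.00251), BBX29 (5.83, 5.45 and 5.68 CPM, against 10.3, 12.7 and 10.2 CPM; log2 -0.97 ± 0.24; adjusted p = 0.00575), BBX21, BBX23, BBX24, BBX25 and BBX28, and also BBX32 (log2 -1.24 ± 0.28; adjusted p = 0.00265). The rise in WT and this comparison share the WT libraries of 8 h, so the 7 of 8 is not independent support for a lost rise. The share of all genes that rose in WT and were lower here is not given. The calls of BBX25 and BBX28 were kept in none of the 6 fits with a library left out, that of BBX7 in 1, and those of BBX14 and BBX21 in 2. The count fell to 6 when replicate 1 or 3 of WT at 8 h, or replicate 1 or 3 of hy5 pif457 at 8 h, was left out.

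By the test of the difference itself, the 8 h response of hy5 pif457 departed from that of WT for 13 BBX genes, at a background of 13.7% (4.74% higher, 8.94% lower). It was lower for BBX6 (-2.40 ± 0.29; edgeR adjusted p = 7.03e-06), BBX28 (-2.29 ± 0.33; adjusted p = 7.76e-05), BBX29 (-2.24 ± 0.34; adjusted p = 0.000133) and BBX24 (-1.44 ± 0.18; adjusted p = 1.39e-05), and for BBX3, BBX21, BBX25 and BBX32. It was higher for BBX7 (1.33 ± 0.28; adjusted p = 0.00312), BBX8 (1.33 ± 0.21; adjusted p = 0.000233), BBX12, BBX13 and BBX14. The call of BBX3 was lost in all 12 fits with a library left out. That of BBX12 was kept in 4. By structure group, 4 of 5 tested genes of group II had the higher change and none the lower, with a median difference of 0.72, and 3 of 6 of group V had the lower change and none the higher, with a median of -1.30, beside a median of -0.05 over all genes tested. The lower change was also that of 3 of 8 in group IV (median -0.82) and 2 of 6 in group I (median -0.67), with none higher. In group III, 1 of 4 had the higher change and none the lower (median 0.30).

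**Figure D5:**
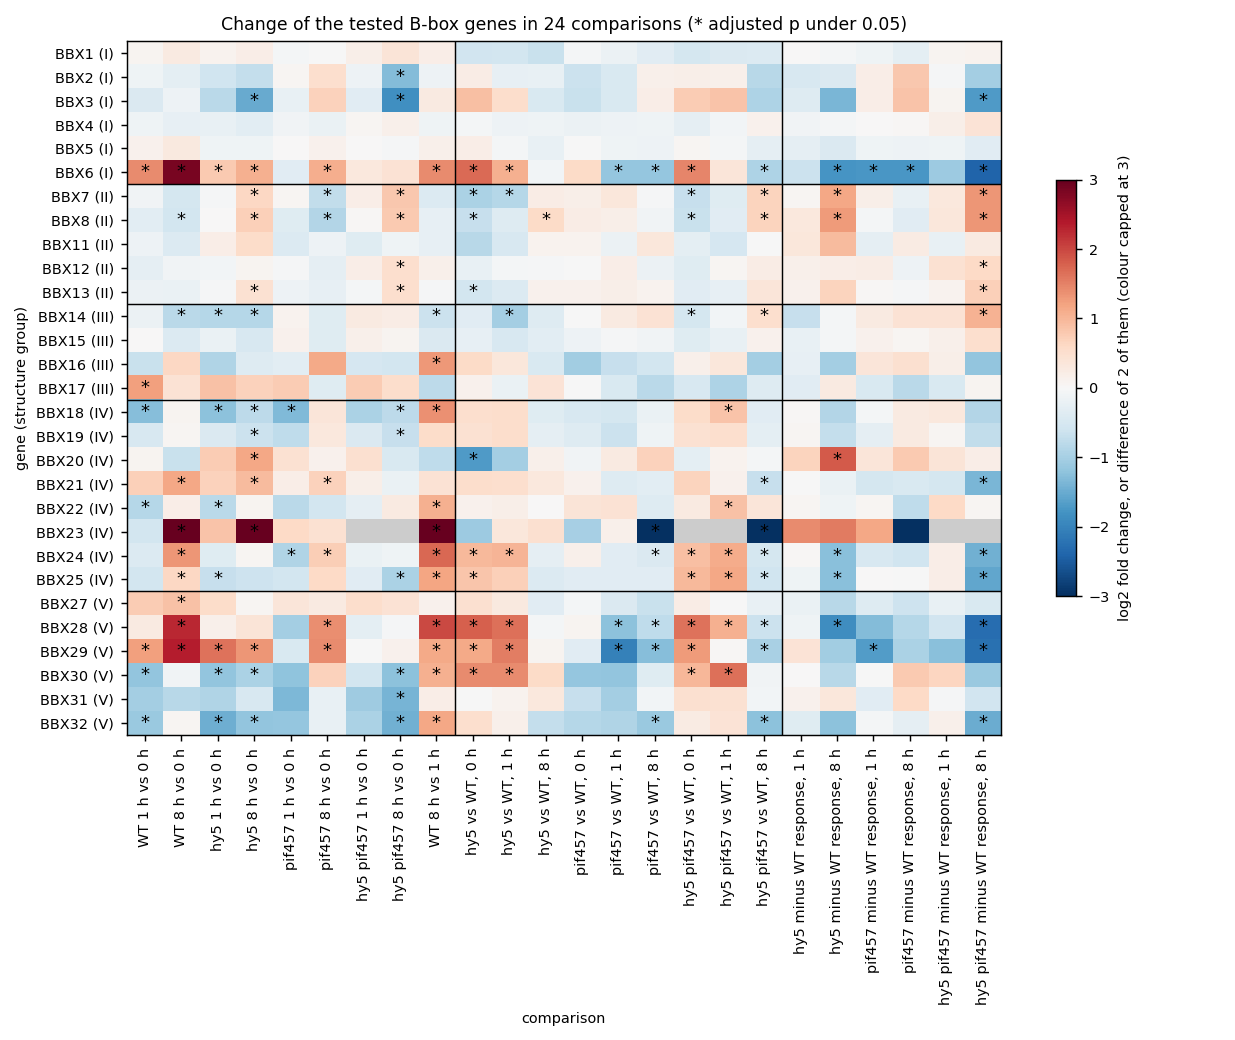
Log2 fold change (first 2 blocks) or difference of 2 log2 fold changes (right block) of the 29 tested BBX genes in the 24 comparisons, with structure groups in brackets; asterisks mark adjusted p under 0.05, and grey cells are comparisons of BBX23 with a group that had no counts. BBX6 is marked in 16 comparisons, and in the 8 h response difference of hy5 pif457 group II has a median of 0.72, while BBX6, BBX28 and BBX29 are at -2.40, -2.29 and -2.24.

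Genes of 1 structure group did not all move together. As a description over the 12 group means of log2 CPM, which share their libraries and hold no independent points, the pairs most alike were BBX6 with BBX29 (r = 0.95), BBX24 with BBX28 (r = 0.94), both from different structure groups, and then BBX19 with BBX30, of another group, and with BBX25, of its own (r = 0.93 each). The other within-group pairs at 0.90 or above were BBX18 with BBX19 (r = 0.92), BBX2 with BBX3 and BBX7 with BBX13 (both r = 0.90). The most opposed pair was BBX14 with BBX29 (r = -0.91). The median r was 0.79 over the 10 pairs of group II, 0.54 over the 15 pairs of group V, and 0.12, -0.28 and 0.28 over the pairs within groups I, III and IV, beside 0.06 over all 406 pairs.

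The proteins that BBX factors work with were followed as a list of 20 genes: HY5 and its homologue HYH, COP1, SPA1 to SPA4, DET1, the corepressors TPL and TPR1 to TPR4, and partners such as ELF3 and the NF-Y subunits of the CO complex. In hy5 pif457 at 8 h, 11 of 20 were lower than in WT, the mutated HY5 among them, and none higher (median log2 -0.28, against 0.02 over all genes tested, of which 18.7% were called, 10.6% as lower). HYH gave 8.12, 7.87 and 7.97 CPM in hy5 pif457, against 30.6, 21.3 and 21.5 CPM in WT (log2 -1.61 ± 0.28; edgeR adjusted p = 0.000233). SPA1 gave 70.5, 90.0 and 76.7 CPM, against 131, 133 and 137 CPM (adjusted p = 0.000809). In WT, 7 of 20 rose at 8 h and none fell (12% of all genes called higher), by at most 0.62 ± 0.15 on the log2 scale (SPA1; adjusted p = 0.00361). In hy5 at 0 h, 3 were higher and 3 lower than in WT, with HY5 itself among the lower (6.35% of all genes higher, 3.14% lower).

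Genes that act around CO were followed as a list of 9: GI and FKF1, the CYCLING DOF FACTORs CDF1, CDF2, CDF3 and CDF5, which repress CO, and the flowering genes FT, TSF and SOC1. CO itself passed in no comparison in the fit of all libraries. At 0 h, CO gave 3.08, 3.79 and 3.44 CPM in hy5, against 5.65, 4.51 and 5.29 CPM in WT (log2 -0.58; edgeR adjusted p = 0.0569). Without replicate 2 of WT at 0 h it passed as lower in hy5 (log2 -0.67; adjusted p = 0.0375). In WT, 6 of the 9 rose at 8 h and 1 fell (median log2 0.84, against -0.03 over all genes tested, of which 19.2% were called, 12% higher and 7.11% lower). CDF5 gave 19.4, 20.6 and 19.2 CPM at 8 h, against 3.57, 3.27 and 3.4 CPM at 0 h (log2 2.53 ± 0.16; edgeR adjusted p = 6.36e-12), and FT, the mobile flowering signal that CO activates, gave 5.73, 8.93 and 9.35 CPM, against 1.45, 0.797 and 1.71 CPM (log2 2.6 ± 0.38; adjusted p = 1.4e-05). At 8 h, FT gave 0.705, 0.51 and 0.478 CPM in hy5 pif457 and 0.788, 0.87 and 1.05 CPM in pif457, against 5.73, 8.93 and 9.35 CPM in WT (log2 -3.82 ± 0.41, adjusted p = 2.35e-07, and -3.14 ± 0.39, adjusted p = 2.92e-06). In hy5 pif457 the 8 h response was lower than in WT for 7 of the 9 and higher for 1, FKF1 (13.7% of all genes called, 8.94% lower and 4.74% higher).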

How the data were processed

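RNA-seq of whole seedlings was made with a stranded mRNA kit, per the labels. The deposited table holds expected counts per gene and library, estimated with RSEM 1.3.0 after STAR 2.5.3a on TAIR10, per the submitters' processing notes; all values are whole numbers. Neither strand setting nor annotation release is stated in the labels, so reads of 11 members that overlap a gene on the other strand may include that gene's. BBX11 shares 9.9% of its 50-base stretches with a gene on its own strand, and BBX32 overlaps a gene on its own strand; the other members share 0.0%. Coordinates, promoters and transcript lengths are from RefSeq TAIR10.1; 32548 of 32833 identifiers matched it.

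Groups and replicate numbers come from the labels, which state biological replicates. Counts were tested in 1 fit of all 36 libraries with 12 group terms (edgeR 4.0.16 quasi-likelihood, R 4.3.3), scaled by TMM, after edgeR's filterByExpr with a count minimum of 10 and a total of 15, which left 21562 genes. The 24 comparisons were 9 between times, 9 between genotypes and 6 differences between responses; several share control libraries. Tests were 2-sided, p-values were adjusted by Benjamini-Hochberg over all genes tested, and genes were called at adjusted p under 0.05. Standard errors are the log2 fold change over the root of F. Overlap of libraries between groups was looked at only for BBX and listed genes. It describes the same libraries as the test and adds no support to a call. The scripts were tested on simulated data. No 2 libraries of the same group were copies (lowest chi-square per degree of freedom 4.04). Pairs from different groups were not checked. Samples with the same replicate number deviated together, with all 3 correlations over 0.1, in 4 of 18 comparisons of a pair of groups (hy5 at 1 against 0 h, pif457 at 1 against 0 h, and hy5 and hy5 pif457 against WT at 1 h); correlations ran from -0.67 to 0.68.

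The members, lists, naming rule and motifs were chosen with earlier results of these data known. All members are named; libraries are given by rule for up to 4 called members with the largest fold in each direction of a comparison, for others (BBX21, BBX24 and BBX27 in WT among them) chosen after their values were seen, and for up to 3 genes of the other lists. Alternatives were RLE scaling, DESeq2 1.42.0, no count filter, CPM at least 1 in 3 libraries, only the groups compared, the replicate block, the root marker score as covariate, leaving out organelle and rRNA genes, leaving out 12 rRNA-rich libraries, and each library left out. Chosen after seeing the data was the block in fits of the groups compared alone. Log2 CPM used a prior count of 2. Figures used matplotlib 3.10.9.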

Additional observations from a re-analysis of the deposited data

Results flagged for a closer look

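The following differ between a mutant and WT in their response to shade by a test of the difference itself (log2 fold change in the mutant minus that in WT, edgeR adjusted p under 0.05). Their causes were not tested.

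At 8 h, the response in hy5 pif457 was lower by the values -2.40 for BBX6, -2.29 for BBX28, -2.24 for BBX29, -1.70 for BBX3, -1.56 for BBX25, -1.49 for BBX32, -1.44 for BBX24 and -1.36 for BBX21. It was higher by 1.33 for BBX7, 1.33 for BBX8, 1.04 for BBX14, 0.72 for BBX13 and 0.60 for BBX12. The call of BBX3 (adjusted p = 0.0372) was lost whichever of the 12 libraries was left out, and that of BBX12 was kept in 4 of 12 such fits.

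In hy5 at 8 h, the differences were -1.87 for BBX28, -1.78 for BBX6, -1.26 for BBX25 and -1.25 for BBX24, and 1.84 for BBX20, 1.27 for BBX8 and 1.17 for BBX7. With one library left out, BBX7 passed in 3 of 12 fits, and BBX20 and BBX25 in 5 each; all 3 calls were also lost with the root marker score in the fit.

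In pif457, the differences were -1.75 for BBX6 and -1.68 for BBX29 at 1 h and -1.74 for BBX6 at 8 h.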

How the results depend on the processing

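The 148 calls of BBX genes gave 2311 values under alternatives, of which 346 were no longer past the threshold. None reversed direction. That says little about stability, because only results already called were refitted, on largely the same libraries. Of 148 calls of BBX genes, 80 held under all alternatives other than leaving out a library, and 67 also with each library left out. Leaving out the 12 rRNA-rich libraries could be run only for comparisons that do not use them, so calls in hy5 pif457 and in pif457 at 8 h did not face it. Of 210 counts of called BBX genes, 180 stayed within 1.5 times. In fits of only the groups compared, with fewer libraries to estimate the spread, counts were 3 for WT at 1 h (7 in the fit of all libraries), 2 for hy5 at 8 h (14), 0 for pif457 at 1 h (2) and 0 at 8 h (7), 3 for hy5 pif457 at 1 h (0), 4 for hy5 against WT at 1 h (7) and 0 at 8 h (1), 18 for hy5 pif457 against WT at 8 h (11), 0 for the hy5 response difference at 8 h (7), 1 for that of pif457 at 1 h (2) and 1 for that of hy5 pif457 at 1 h (0). All genes called were 329 for WT at 1 h (1121 in the fit of all libraries) and 497 for hy5 at 8 h (1999). For pif457 they were 0 at 1 h (49) and 13 at 8 h (2143), and for hy5 pif457 at 1 h 270 (39). Against WT they were 181 (921) for hy5 at 1 h, 124 (562) at 8 h and 5142 (4027) for hy5 pif457 at 8 h. For response differences they were 23 (329) for hy5 at 8 h and, at 1 h, 157 (188) for pif457 and 245 (209) for hy5 pif457. DESeq2 called 11 in WT at 1 h, 6 in pif457 at 1 h, 1 in hy5 pif457 at 1 h, 2 in hy5 against WT at 8 h, 2 for the pif457 response difference at 8 h and 1 for that of hy5 pif457 at 1 h. Among all genes it called 1582, 114, 92, 1048, 1150 and 268 in that order, against 1121, 49, 39, 562, 629 and 209 by edgeR. Without the 12 rRNA-rich libraries, counts were 9 for hy5 at 8 h, 1 for pif457 at 1 h, 0 for hy5 against WT at 8 h and 1 for the pif457 response difference at 1 h. Of all genes, 1811, 16, 624 and 151 were called in that order, against 1999, 49, 562 and 188 with them. With the root marker score as covariate, counts of BBX genes were 1 for hy5 pif457 at 1 h, 0 for hy5 against WT at 8 h, 4 for the hy5 response difference at 8 h and 2 for that of hy5 pif457 at 1 h. All genes called were 52, 257, 144 and 219 in that order, against 39, 562, 329 and 209 without the score. Without the count filter, hy5 against WT at 8 h gave 0, with 503 of all genes called (562 with it). The causes of these changes were not tested.

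The replicate block in the fit of all libraries moved 2 of 24 counts beyond 1.5 times, to 0 for hy5 against WT at 8 h and to 1 for the hy5 pif457 response difference at 1 h. With the block, 502 and 198 of all genes were called there, against 562 and 209 without it. In paired fits of the groups compared, the block gave 4 for hy5 against WT at 1 h and 10 for hy5 pif457 against WT at 1 h. All genes called were 370 and 2039 in these fits, against 921 and 1633 in the fit of all libraries.

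With each library left out in turn, counts ran from 4 to 10 for WT at 1 h, 7 to 14 for hy5 at 8 h (lowest without replicate 2 of hy5 at 0 h), 1 to 2 for pif457 at 1 h, 7 to 10 for hy5 pif457 at 8 h (lowest without its replicate 1 at 8 h), 0 to 7 for hy5 against WT at 8 h, 0 to 2 for pif457 against WT at 0 h and 6 to 9 for hy5 pif457 against WT at 8 h. For response differences they ran from 4 to 13 for hy5 at 8 h, 1 to 3 for pif457 at 1 and at 8 h, and 0 to 1 for hy5 pif457 at 1 h. No share of all genes is given beside counts with a library left out. With 3 libraries a group, small changes are not detectable, and the levels of BBX9, BBX10, BBX23 and BBX26 are limited by depth.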
